A study of Mus musculus with 8 samples.

Results

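The average effect of siRNA against Rbbp4 was measured in mouse late morulae by setting the 4 libraries whose zygotes had received that siRNA against the 4 whose zygotes had not. All 8 libraries of the series enter the comparison, and the sides were taken from the treatment that the sample labels give, not from any measured value. The side without Rbbp4 siRNA held 2 libraries with a non-specific siRNA (the control) and 2 with siRNA against Rbbp7 (the Rbbp7 knockdown). The side with Rbbp4 siRNA held 2 libraries with siRNA against Rbbp4 alone (the Rbbp4 knockdown) and 2 with siRNA against Rbbp4 and Rbbp7 together (the double knockdown). All embryos were injected as zygotes and collected at 78 h after fertilization, as late morulae. Since Rbbp7 siRNA was given to 2 libraries on each side, its effect was fitted as a covariate and the Rbbp4 effect was averaged over embryos without and with it. The labels name 1 treatment per targeted gene and no rescue, so an effect of this siRNA on other transcripts cannot be told apart from loss of Rbbp4. Whether replicate libraries were made from different pools of embryos is not stated either, and p-values therefore measure only the spread between libraries, which may be technical.

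Rbbp4 encodes a WD40-repeat protein that binds the N-terminal helix of histone H4 and the tail of histone H3. It is shared by several chromatin assemblies: the histone deacetylase complexes NuRD and SIN3, the histone methyltransferase complex PRC2, the nucleosome remodeller NURF, the histone chaperone CAF-1 and the MuvB core, which regulates cell cycle genes. Rbbp7 is its close paralog and is found in many of the same assemblies. The late morula is the stage at which outer cells begin to form trophectoderm and inner cells the inner cell mass.

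The deposited values are a normalized abundance per gene (the authors' DESeq2 normalization of read counts between libraries), not divided by gene length, so levels are compared between libraries and not between genes. Of 19058 genes, 12565 reached a mean of 10 over the 8 libraries and were tested on log2(value + 1) with limma and Benjamini-Hochberg adjustment, and a gene with an adjusted p below 0.05 is said to have passed or been called. Every adjusted p below comes from that fit, a log2 change is the average Rbbp4 siRNA effect with its standard error unless another is named, and for low values this scale makes a change look smaller. Library totals ranged from 11334107 to 12011829. Control replicate 1 stood apart, with 3937 genes listed at 0 against 2644 to 3237 in the others and 6.21% of its total from mitochondrial genes against 4.26% to 5.53%. Bulk RNA cannot tell apart fewer cells of a type and less RNA per cell.

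Rbbp4 itself (chromosome 4, 129307100 to 129335370, GRCm38) was listed at 5300 and 4710 in the control, 4370 and 4467 in the Rbbp7 knockdown, 402 and 343 in the Rbbp4 knockdown, and 348 and 433 in the double knockdown. All 4 libraries with the siRNA were far below all 4 without it, at 8.10% of their mean. The log2 change was −3.63 ± 0.11 (adjusted p = 9.35e-08), with −3.75 ± 0.15 in embryos without and −3.50 ± 0.15 in embryos with Rbbp7 siRNA. Sync and a long non-coding gene on the opposite strand overlap 8.94% and 9.10% of the exon bases of Rbbp4, and no source used here says whether counting used strand. The paralog Rbbp7 was listed at 8399 and 7205 in the control and at 6696 and 6295 in the Rbbp4 knockdown, and at 298, 293, 327 and 266 in the libraries with siRNA against it. Its log2 change with Rbbp4 siRNA was −0.13 ± 0.10 (adjusted p = 0.622), so no increase of the paralog was detected.

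Across the transcriptome, 27 of 12565 genes (0.215%) passed. Of these, 12 were higher (0.0955%) and 15 lower (0.119%), the latter including Rbbp4. At an unadjusted p below 0.05 there were 1720 genes (13.7%), with 930 higher (7.40%) and 790 lower (6.29%), against 628 expected by chance. The median log2 change of all tested genes was 0.0017, with 50.2% above 0. Apart from Rbbp4, 10 of the genes that rose and 4 of the 14 that fell changed at least 2-fold. In 25 of these 26 genes the 4 libraries with Rbbp4 siRNA lay all above or all below the other 4, which their choice by a difference between the same libraries favours. Of all tested genes, 7.08% showed such a separation, 3.50% with the siRNA libraries above and 3.58% with them below. The number that passed depended on every library: it was 18 without control replicate 1, 22 without control replicate 2, 14 and 5 without Rbbp4 knockdown replicates 1 and 2, 5 and 7 without those of the Rbbp7 knockdown, and 8 and 4 without those of the double knockdown. Mfn2 and Pank3 were the most stable of the protein-coding calls after Rbbp4, past the threshold in 20 and 19 of 21 alternative settings. The last gene inside the threshold was Arid3b, with an adjusted p of 0.04998, and the nearest outside was Nsmaf, at 0.0507 with a log2 change of 0.72 ± 0.12.

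Mitochondrial and metabolic genes were among those that fell. Mfn2, a mitofusin that fuses outer mitochondrial membranes, was listed at 701 and 798 in the control, 666 and 605 in the Rbbp7 knockdown, 377 and 351 in the Rbbp4 knockdown, and 312 and 302 in the double knockdown. Every library with Rbbp4 siRNA was below every library without it, at 48.4% of their mean level, and the size hardly differed between embryos without (−1.04 ± 0.15) and with Rbbp7 siRNA (−1.05 ± 0.15). The average log2 change was −1.04 ± 0.10 (adjusted p = 0.00483). Pank3, a pantothenate kinase that catalyses the first step of coenzyme A synthesis, was listed between 8125 and 10759 in the 4 libraries without Rbbp4 siRNA and between 4058 and 5276 in the 4 with it, a log2 change of −1.05 ± 0.11 (adjusted p = 0.00593). Tat, which encodes tyrosine aminotransferase, was listed at 805 and 981 in the control, 656 and 567 in the Rbbp7 knockdown, 528 and 409 in the Rbbp4 knockdown, and 317 and 269 in the double knockdown. Its libraries separated by Rbbp4 siRNA (log2 change −0.997 ± 0.13, adjusted p = 0.0154), and within each side those with Rbbp7 siRNA were the lower ones.

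Further genes that fell have various functions. Znrd1, a subunit of RNA polymerase I, had 394 to 564 without and 181 to 252 with Rbbp4 siRNA (−0.9999 ± 0.14, adjusted p = 0.0234). Prkcsh, the beta subunit of glucosidase II that trims glycans in the endoplasmic reticulum, fell from a range of 1018 to 1253 to 580 to 678 (−0.78 ± 0.10, adjusted p = 0.0154). Pafah1b2, a catalytic subunit of a platelet-activating factor acetylhydrolase, fell from 1301 to 1825 to between 777 and 998 (−0.88 ± 0.12, adjusted p = 0.0218). None of the ranges of these 3 genes overlapped. The ubiquitin ligase Rnf185 fell by 0.67 ± 0.11 (adjusted p = 0.0450) and Ube2m, the conjugating enzyme for NEDD8, by 0.51 ± 0.08 (adjusted p = 0.0486), the smallest change among the 27. Arid3b, which binds AT-rich DNA, fell by 0.75 ± 0.12.

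Max encodes the obligate partner of Myc proteins and is also a subunit of a variant polycomb complex that represses germline genes. It was listed at 1256 and 1249 in the control, 1030 and 1088 in the Rbbp7 knockdown, 665 and 691 in the Rbbp4 knockdown, and 708 and 730 in the double knockdown. The 2 groups with Rbbp4 siRNA were level with each other and below the other 2, with a log2 change of −0.72 ± 0.10 (adjusted p = 0.0203). Trim28, the corepressor that zinc finger proteins recruit to deposit histone H3 lysine 9 methylation, was listed at 10829 and 10007 in the control, 11056 and 10537 in the Rbbp7 knockdown, 7978 and 7708 in the Rbbp4 knockdown, and 7157 and 6402 in the double knockdown. It also separated the 4 libraries from the 4, with a smaller change of −0.54 ± 0.08 (adjusted p = 0.0379). Trim28 and Ube2m are neighbours on chromosome 7, on opposite strands and 4084 bases apart.

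Signalling, centrosome and lineage genes made up the rest of the group that fell. Mob1a, a co-activator of the LATS kinases of the Hippo pathway, was listed at 1901 and 1570 in the control, 1528 and 1456 in the Rbbp7 knockdown, 959 and 974 in the Rbbp4 knockdown, and 908 and 906 in the double knockdown. The lowest library without Rbbp4 siRNA was well above the highest with it, and the log2 change was −0.78 ± 0.09 (adjusted p = 0.0126). Sac3d1, a centrosome-associated protein, fell from 292 to 340 to between 136 and 161, the largest drop after Rbbp4 (−1.11 ± 0.13, adjusted p = 0.0151). Plet1, a surface protein of trophoblast, was the exception to the separation: it was 1127 and 1064 in the control, 541 and 780 in the Rbbp7 knockdown, 575 and 499 in the Rbbp4 knockdown, and 278 and 340 in the double knockdown. The Rbbp7 and Rbbp4 knockdowns overlapped, and the double knockdown was lowest. Its Rbbp4 effect was −1.05 ± 0.13 (adjusted p = 0.0154) and its Rbbp7 effect −0.78 ± 0.13 (adjusted p = 0.0767). An antisense transcript overlaps 13.4% of the exon bases of Plet1.

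Several of the 12 genes that rose encode secreted or surface proteins. Plau, the urokinase protease, was listed at 614 and 851 in the control, 495 and 639 in the Rbbp7 knockdown, 1513 and 1671 in the Rbbp4 knockdown, and 2456 and 3660 in the double knockdown. All 4 libraries with Rbbp4 siRNA were higher and the double knockdown highest (log2 change 1.77 ± 0.25, adjusted p = 0.0234). Dcbld2, a neuropilin-like membrane receptor, was listed at 755 and 689 in the control, 420 and 493 in the Rbbp7 knockdown, 1264 and 1484 in the Rbbp4 knockdown, and 1722 and 1543 in the double knockdown. The groups with Rbbp4 siRNA were nearest to each other and did not overlap with the rest (1.38 ± 0.17, adjusted p = 0.0154). St3gal6 on the other strand shares 19.1% of its exon bases, but was listed at no more than 168 in any library. Twsg1, a secreted modulator of bone morphogenetic proteins, rose from 35.1 to 52.2 without to between 90.4 and 183 with Rbbp4 siRNA (1.55 ± 0.23, adjusted p = 0.0367). Neto2, an auxiliary subunit of glutamate receptors, rose by 1.03 ± 0.15 (adjusted p = 0.0323). Mgl2, a C-type lectin best known from macrophages and dendritic cells, rose by 1.67 ± 0.26, from 42.8 to 114 to between 163 and 373 (adjusted p = 0.0379).

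The other protein-coding genes that rose encode intracellular proteins. Elovl3, a fatty acid elongase, had the largest rise among the genes with a level above 0 on both sides: 3.80 and 6.02 in the control, 8.72 and 6.25 in the Rbbp7 knockdown, 18.6 and 41.6 in the Rbbp4 knockdown, and 196 and 159 in the double knockdown. Its level was near 0 on 1 side and moderate only in the double knockdown, and its log2 change of 3.36 ± 0.51 (adjusted p = 0.0368) averages 2.32 without and 4.40 with Rbbp7 siRNA. Cobll1, related to the actin nucleator cordon-bleu, was 227 and 140 in the control, 162 and 157 in the Rbbp7 knockdown, 364 and 462 in the Rbbp4 knockdown, and 450 and 458 in the double knockdown (1.35 ± 0.17, adjusted p = 0.0154). Acad10, of the acyl-CoA dehydrogenase family, rose from 130 to 213 to between 284 and 471 (1.21 ± 0.17, adjusted p = 0.0230). Vav1, a signalling protein typical of blood cells, rose by 1.57 ± 0.25 (adjusted p = 0.0450). Its control and Rbbp7 knockdown libraries had 139, 89.2, 88.8 and 118, its Rbbp4 knockdown libraries 205 and 248, and its double knockdown libraries 421 and 478. Ddit4l, an inhibitor of mTORC1 signalling, rose by 0.82 ± 0.13 (adjusted p = 0.0379), and the hydrolase Cmbl by 0.87 ± 0.14 (adjusted p = 0.0447).

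**Figure D1:**
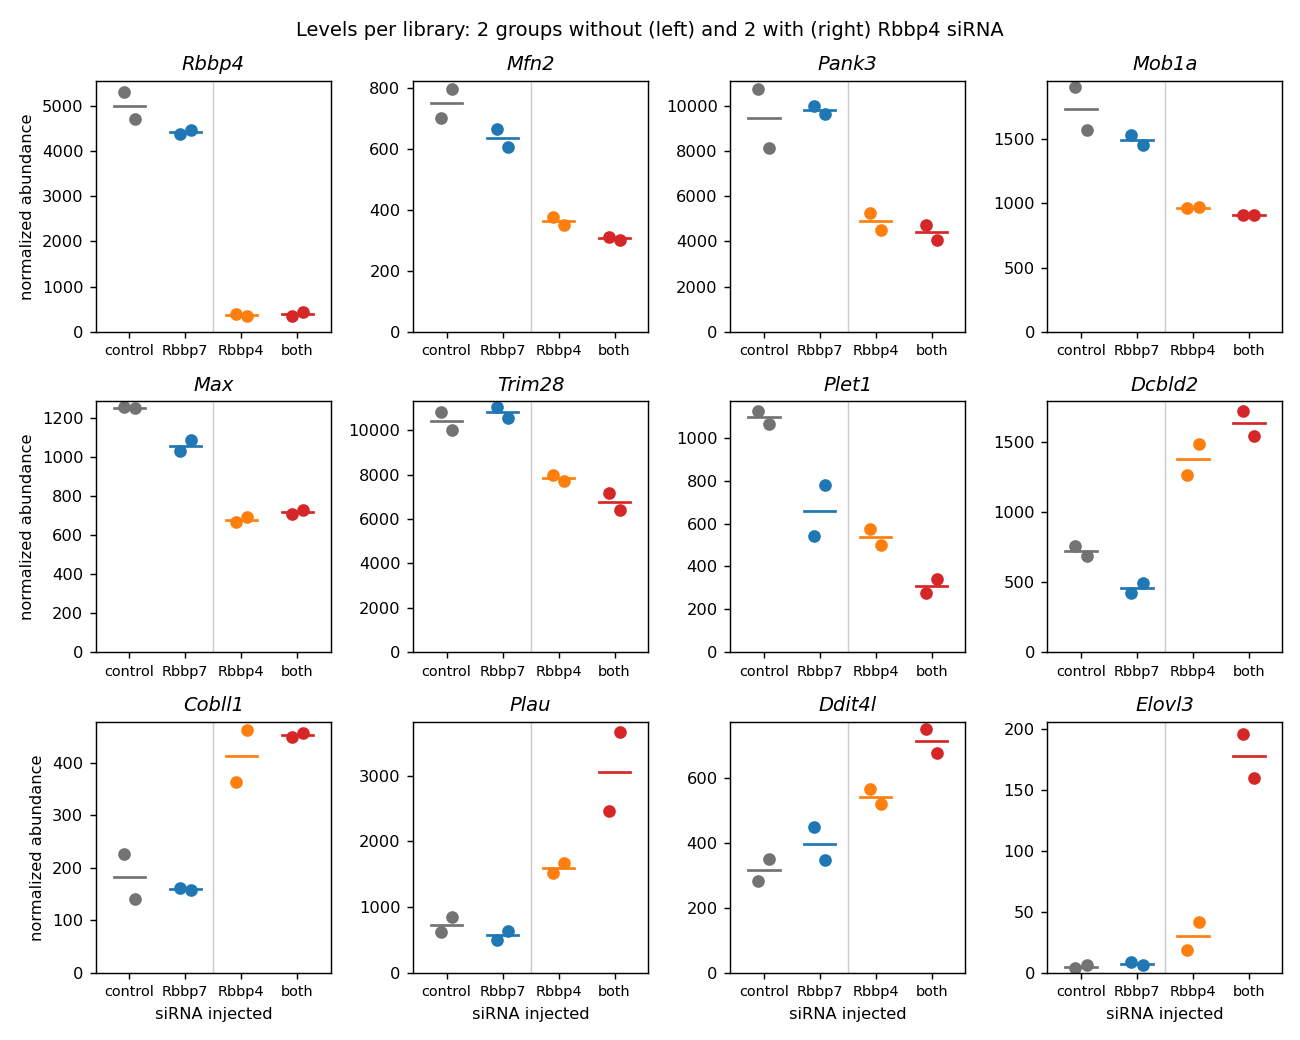
Normalized abundance (y axis, from 0) of Rbbp4 and 11 called genes in each of the 8 libraries, by the siRNA injected (x axis). Points are libraries and lines the means of 2. In 11 of the 12 panels the 2 groups left of the grey line (without Rbbp4 siRNA) do not overlap with the 2 right of it, and in Plet1 they do.

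The gene with the largest fitted change, Gm12613, falls outside the rule for named genes and was picked for its value. It is a pseudogene of 382 bases on chromosome 11 (60610136 to 60610517), was listed at 0 in all 4 libraries without Rbbp4 siRNA, and had 64.0 and 83.0 in the Rbbp4 knockdown and 151 and 130 in the double knockdown (adjusted p = 6.7e-04). It has 9 copies in the table that are at least 98% identical over its length, and reads cannot be assigned to 1 of them with certainty. The copy Gm12614, which is 99.7% identical, was listed at 106, 94.1, 115 and 55.6 without Rbbp4 siRNA, 63.8 and 0 in the Rbbp4 knockdown and 0 and 0 in the double knockdown. In sums added after the data were seen, the log2 difference shrank to 0.42 when these 2 were summed and to 0.06 over Gm12613 and its 9 copies, so the value of Gm12613 alone is not a reliable measure of its transcript.

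Embryos without and with Rbbp7 siRNA gave 2 estimates of the Rbbp4 siRNA effect that share no library. Alone, the first called 3 genes (0.0239%) and the other 45 (0.358%). The 3 were Rbbp4 itself, Gm12613, whose value alone is not reliable, and Ndufa9, listed at 0 in both Rbbp4 knockdown libraries. At an unadjusted p below 0.05 the counts were 736 (5.86%) and 1879 (15.0%). Of the 26 genes called for the average besides Rbbp4, all 14 that fell and all 12 that rose had an unadjusted p below 0.05 in each estimate. The choice of genes by the average favours this, and both p-values of a gene rest on the same residual variance. Across the 12564 tested genes other than Rbbp4, the estimates correlated with Pearson's r = 0.137 and Spearman's rho = 0.203, and 57.6% had the same sign. For the 9860 whose mean reached 50 the values were 0.239, 0.257 and 58.8%. These describe genes, which are not independent replicates and share the normalization of 1 table. The 26 called genes all had the same sign in both, which the choice of genes by the average favours.

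The genes that rose and those that fell differed in how the 2 estimates compared, as a description with no test of the groups. All 12 that rose had a larger log2 change with Rbbp7 siRNA than without it, with medians of 1.83 and 1.12. Of the 14 that fell, 8 were larger with it, and the medians were −0.85 with and −0.91 without. The interaction term, which is the Rbbp4 effect with minus that without Rbbp7 siRNA, had an unadjusted p below 0.05 in 4 of the 26 genes, against 6.49% of all tested genes. The 4 were Dcbld2 (adjusted p = 0.593), Plau (adjusted p = 0.593), Vav1 (adjusted p = 0.747) and Elovl3 (adjusted p = 0.760), and none passed for the interaction, for which 1 gene did (0.00796%, Ndufa9). None of the 26 passed for the average effect of Rbbp7 siRNA, in which 15 genes (0.119%) passed. Gm12613 was the only one of the 26 among the 4 genes (0.0318%) that passed for the Rbbp4 minus the Rbbp7 effect, so for the other 25 a difference between the siRNAs did not pass the test.

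**Figure D2:**
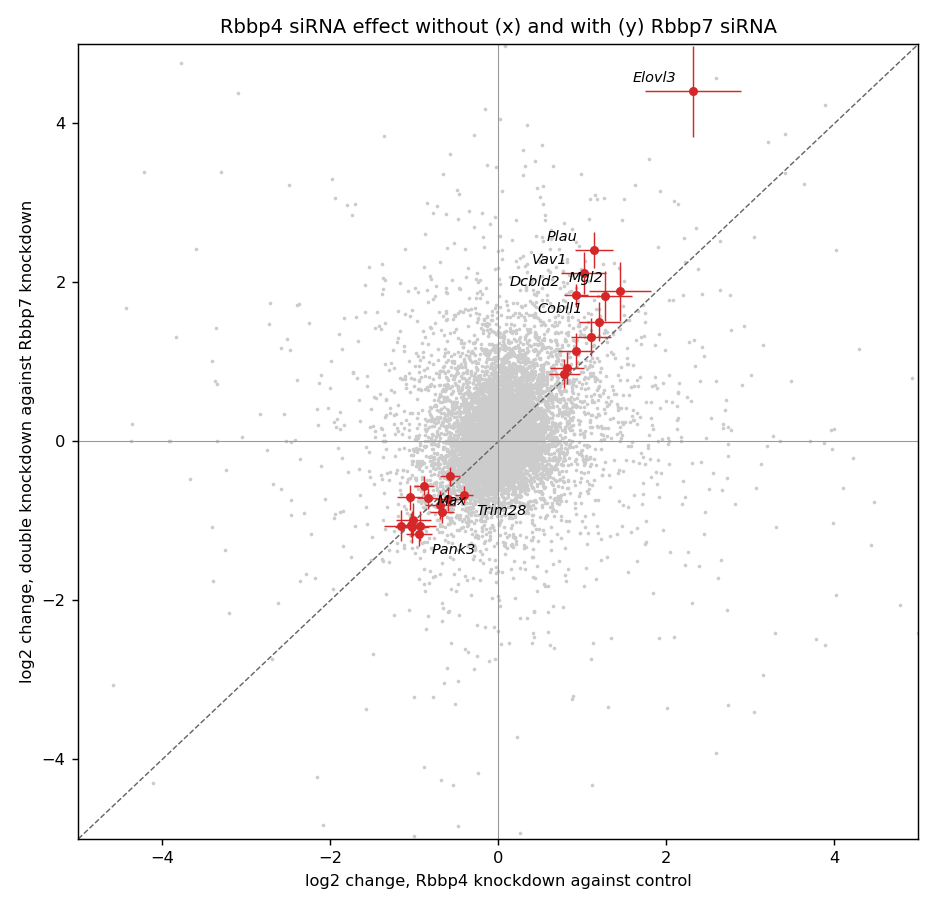
Log2 change with Rbbp4 siRNA in embryos without (x axis) and with Rbbp7 siRNA (y axis) for the tested genes other than Rbbp4; red points with bars of 1 standard error are the called genes, grey points all others, and the dashed line marks equality. The genes that rose lie above the line and those that fell lie on both sides of it; 18 genes, Gm12613 among them, fall outside the axes.

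Besides Rbbp4, no gene of the complexes that contain it passed. This held in NuRD (14 tested, 5 above and 9 below 0, median −0.15), SIN3 (15 tested, median −0.06), PRC2 (11 tested, median −0.02), the MuvB and DREAM list (13 tested, median −0.07) and the histone chaperones (21 tested, 16 below 0, median −0.04), against a median of 0.0017 over all tested genes. In SIN3 the members went both ways: at an unadjusted p below 0.05, 4 of 15 were higher (7.40% of all tested genes) and 2 lower (6.29%), and in 3 the 4 libraries with Rbbp4 siRNA lay above the other 4 (3.50%), in 0 below (3.58%). In NuRD and SIN3, the paralogous deacetylases had opposite signs. Hdac1 was listed at 3726 and 3979 in the control, 5519 and 5804 in the Rbbp7 knockdown, 3362 and 3671 in the Rbbp4 knockdown, and 3779 and 3910 in the double knockdown (−0.35 ± 0.10, adjusted p = 0.174). The level was high in the Rbbp7 knockdown and alike in the other 3 groups. Hdac2 was 2981 and 2457, 2110 and 2482, 3032 and 3133, and 3616 and 3953 in the same order, with no overlap between the sides (0.46 ± 0.12, adjusted p = 0.156). Mta2, a NuRD scaffold, had −0.40 ± 0.10 (adjusted p = 0.132), and Lin37, a subunit of MuvB, −0.73 ± 0.16 (adjusted p = 0.107). Ezh2, the methyltransferase of PRC2, had −0.23 ± 0.09 (adjusted p = 0.300) and its partner Mtf2 −0.35 ± 0.08 (adjusted p = 0.114).

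Most genes of G2 and mitosis had values below 0. Of 61 tested members 55 were below 0 and 6 above, with a median log2 change of −0.18, and none passed. At an unadjusted p below 0.05, 24 were lower and 0 higher, against 6.29% of all tested genes; in 13 of the 61 the 4 libraries with Rbbp4 siRNA lay below the other 4, against 3.58%. The median was −0.14 without and −0.27 with Rbbp7 siRNA, and −0.16 to −0.24 when any 1 library was left out. For the average Rbbp7 siRNA effect, 48 of the 61 were below 0, with a smaller median of −0.09. Ube2c, the ubiquitin-conjugating enzyme of the anaphase-promoting complex, was listed at 3031 and 2518 in the control, 3056 and 2720 in the Rbbp7 knockdown, 1875 and 2191 in the Rbbp4 knockdown, and 2185 and 2016 in the double knockdown. Its sides did not overlap, and it had −0.45 ± 0.09 (adjusted p = 0.0992). Cenpa, the histone H3 variant of centromeres, had 1226, 1245, 1350 and 1443 without and 851, 1009, 667 and 974 with Rbbp4 siRNA, again with no overlap (−0.60 ± 0.14, adjusted p = 0.112). Cdca3, which promotes mitotic entry, was nearest to the threshold (−0.52 ± 0.09, adjusted p = 0.0527), and its sides overlapped because the Rbbp7 knockdown, at 1018 and 1071, was also below the control, at 1528 and 1369. The proliferation marker Mki67 had −0.40 ± 0.12 (adjusted p = 0.188). Genes of G1/S and replication showed less: 29 of 48 were below 0, with a median of −0.02.

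**Figure D3:**
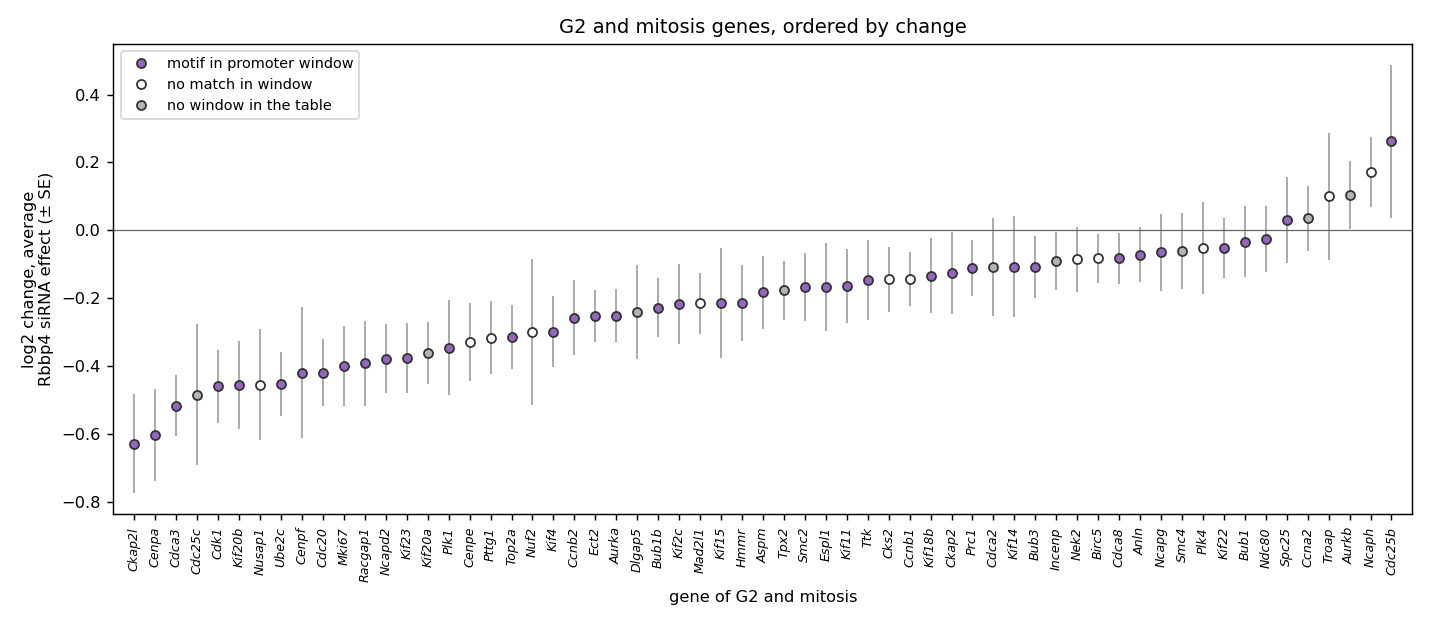
Log2 change with Rbbp4 siRNA (y axis, bars of 1 standard error) of the 61 tested genes of G2 and mitosis (x axis, ordered by change); the fill says whether the promoter window holds TTTGAA or TTCGAA. Of the 61 genes, 55 lie below 0 and 40 of the 52 with a window hold the motif.

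The cell cycle genes were also read in their promoters, because MuvB, which contains Rbbp4, is known to bind the cell cycle genes homology region, written TTTGAA or TTCGAA, near their start sites. Windows of 250 bases before to 50 after the start came from RefSeq on GRCm38.p6. On either strand the motif stood in 19.2% of all 32851 windows and in 16.2% of the 9527 tested genes with a window, but in 40 of 52 genes of G2 and mitosis with a window (76.9%). A match describes letters and is not a site. The median log2 change was −0.22 in the 40 genes with a match and −0.14 in the 12 without. Over all tested genes with a window, it was −0.016 in the 1541 with a match and 0.0013 in those without. Whether the motif has a part in these values was not tested. Of the genes that passed and have a window, 1 of 14 that fell (Rbbp4 left out) and 0 of 9 that rose held it. The windows of the 3 members with the smallest p are shown with the motif in capitals; the letters on the reverse strand read TTCAAA. It starts 31 bases after the start in Cdca3 (chr6:124829926-124830225, plus strand), 29 before in Ube2c (chr2:164769679-164769978, plus strand) and 17 after in Cenpa (chr5:30666636-30666935, plus strand).
Cdca3: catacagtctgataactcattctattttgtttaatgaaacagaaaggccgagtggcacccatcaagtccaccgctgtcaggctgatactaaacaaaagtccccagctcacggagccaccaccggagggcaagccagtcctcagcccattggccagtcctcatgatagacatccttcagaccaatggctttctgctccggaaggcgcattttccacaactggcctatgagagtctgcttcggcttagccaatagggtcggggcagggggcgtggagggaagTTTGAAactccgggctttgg
Ube2c: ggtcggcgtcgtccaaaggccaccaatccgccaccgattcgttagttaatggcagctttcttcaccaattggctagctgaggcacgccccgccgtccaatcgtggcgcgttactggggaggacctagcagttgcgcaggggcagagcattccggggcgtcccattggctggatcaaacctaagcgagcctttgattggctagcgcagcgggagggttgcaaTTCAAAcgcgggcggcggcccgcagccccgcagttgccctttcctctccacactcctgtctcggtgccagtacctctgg
Cenpa: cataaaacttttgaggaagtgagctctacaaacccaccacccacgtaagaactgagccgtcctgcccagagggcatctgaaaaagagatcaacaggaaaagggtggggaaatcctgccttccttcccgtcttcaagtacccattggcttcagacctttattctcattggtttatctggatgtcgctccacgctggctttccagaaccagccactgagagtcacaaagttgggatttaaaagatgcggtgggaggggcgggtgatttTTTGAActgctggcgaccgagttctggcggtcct

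Targets of p53 were mostly above 0, as they were for the average Rbbp7 siRNA effect on the same 8 libraries (31 of 37, median 0.19). For Rbbp4 siRNA, 28 of the 37 tested were above and 9 below 0, with a median of 0.22. Of them, 14 were higher at an unadjusted p below 0.05 (7.40% of all tested genes). Ddit4l was the only one that passed: it was listed at 283 and 352 in the control, 450 and 347 in the Rbbp7 knockdown, 568 and 519 in the Rbbp4 knockdown, and 751 and 678 in the double knockdown. The members at the other end were Tigar, a fructose bisphosphatase that diverts glucose from glycolysis, at −0.56 ± 0.09 (adjusted p = 0.0507), and the kinase Plk3, at −0.78 ± 0.16 (adjusted p = 0.0992). In both the 4 libraries with Rbbp4 siRNA lay below the other 4. The cyclin kinase inhibitor Cdkn1a had 4284 and 4415 in the control, 3781 and 2916 in the Rbbp7 knockdown, 2539 and 2252 in the Rbbp4 knockdown, and 4561 and 2884 in the double knockdown. It was lowest in the Rbbp4 knockdown, and replicate 2 of the Rbbp7 and of the double knockdown were also below the control. The average was −0.37 ± 0.21 (adjusted p = 0.479), and Trp53 itself had 0.02 ± 0.08.

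Among the 25 genes of DNA methylation and H3K9 methylation, 15 were below 0 (median −0.07), and Max and Trim28 were the 2 that passed, both lower (0.119% of all tested genes). At an unadjusted p below 0.05, 6 were lower (6.29% of all tested genes) and 1 higher (7.40%). The DNA demethylase Tet1 had 0.50 ± 0.09 (adjusted p = 0.0626): it was listed at 1400, 1272, 1581 and 1574 without and 1910, 1826, 2491 and 2022 with Rbbp4 siRNA, with no overlap. The maintenance methyltransferase Dnmt1 had −0.07 ± 0.09. Germline genes that are silenced by DNA methylation and the Max-containing complex were above 0 in 18 of the 24 that passed the filter on low values, of 32 listed, with a median of 0.22, and none was called. A gene raised in only some libraries can pass that filter through them: Tex101 was listed at 3.12 to 9.53 without and 8.46 to 28.3 with Rbbp4 siRNA. That median was 0.05 without and 0.35 with Rbbp7 siRNA, and by library the double knockdown stood alone, at 0.28 and 0.25 above each gene's mean, while the other 6 libraries lay between −0.21 and 0.03. The average Rbbp7 siRNA effect on this list was also above 0 in 18 of 24, with a median of 0.25. Sycp1, of the synaptonemal complex, separated the sides more evenly: it had 144, 125, 101 and 169 without, 217 and 270 in the Rbbp4 knockdown, and 339 and 389 in the double knockdown (1.15 ± 0.21, adjusted p = 0.0626). Sycp3 had 0.50 ± 0.20 (adjusted p = 0.308), with 0.09 without and 0.91 with Rbbp7 siRNA.

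The E-box CACGTG is a motif bound by Max dimers. It reads the same on both strands and stood in 7.15% of all promoter windows and 11.9% of the tested genes with one. It was in 11 of 23 germline genes with a window (47.8%), whose median log2 change was 0.35, against 0.09 in the 12 without it. Over all tested genes with a window, the medians were nearly equal, 1.47e-05 with and −0.00275 without the E-box. The germline genes compared are those past the filter on low values, which a gene can pass through the libraries where it is high. Whether the E-box has a part in their values was not tested. Among genes that passed it was in 3 of the 14 that fell and 0 of 9 that rose. The germline members with the smallest p are Sycp1, Sycp3 and Tex101, and the window of Tex101 holds no E-box. The windows of Sycp1 (chr3:102936051-102936350, minus strand) and Sycp3 (chr10:88459337-88459636, plus strand) are shown, with the E-box in capitals. It starts 94 bases before the start in Sycp1, and 64 and 43 before in Sycp3.
Sycp1: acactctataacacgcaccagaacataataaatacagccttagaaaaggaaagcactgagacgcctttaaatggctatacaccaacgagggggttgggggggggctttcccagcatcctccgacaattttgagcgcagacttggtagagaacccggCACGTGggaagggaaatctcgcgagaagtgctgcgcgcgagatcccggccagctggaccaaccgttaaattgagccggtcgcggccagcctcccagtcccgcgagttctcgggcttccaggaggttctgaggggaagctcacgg
Sycp3: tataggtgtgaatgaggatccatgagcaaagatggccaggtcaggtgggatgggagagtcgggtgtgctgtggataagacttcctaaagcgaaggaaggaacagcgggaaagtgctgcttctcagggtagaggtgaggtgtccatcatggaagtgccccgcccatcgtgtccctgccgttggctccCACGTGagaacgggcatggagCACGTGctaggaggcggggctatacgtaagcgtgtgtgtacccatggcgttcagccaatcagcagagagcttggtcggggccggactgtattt

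Histone genes, measured here as polyadenylated transcripts, were above 0 in 12 of 16 (median 0.32), and none passed. The average Rbbp7 siRNA effect, which is measured on the same 8 libraries, had a median of 0.34 on this list, with 13 of 16 above 0. By library, the list's median was lowest in control replicate 1, at −0.48 relative to each gene's mean, against −0.12 in control replicate 2, and it was 0.28 for the Rbbp4 effect without control replicate 1. H3f3b, which encodes the replacement histone H3.3, was listed at 6557 and 6874 in the control, 5671 and 6894 in the Rbbp7 knockdown, 7184 and 8728 in the Rbbp4 knockdown, and 12632 and 13024 in the double knockdown. The sides did not overlap, but most of the difference lay in the double knockdown: 0.64 ± 0.15 on average (adjusted p = 0.125), 0.24 without and 1.04 with Rbbp7 siRNA. H3f3a, the other gene for H3.3, had 0.16 ± 0.12 (adjusted p = 0.622). H2afx, which marks DNA breaks when phosphorylated, had −0.46 ± 0.11 (adjusted p = 0.118), with the 4 libraries below the other 4. The H3.3 chaperones Hira and Daxx had 0.02 ± 0.11 and 0.28 ± 0.14.

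**Figure D4:**
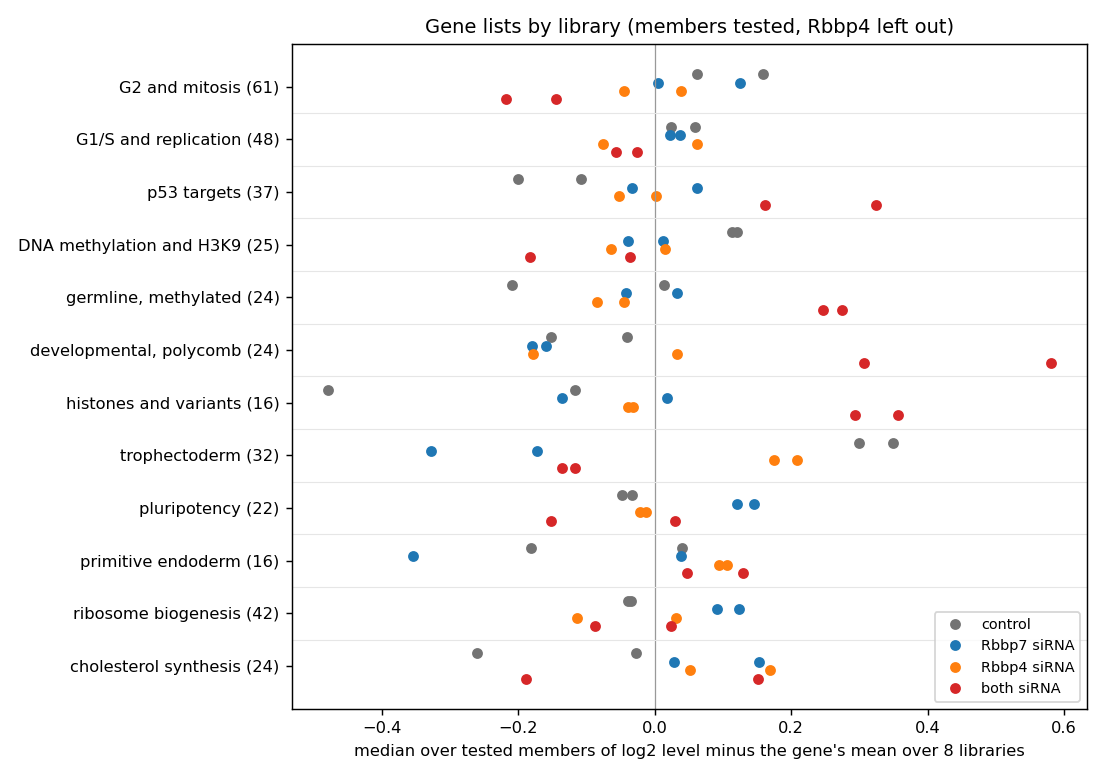
Median over the tested members of each list (number in brackets, Rbbp4 left out) of the log2 level minus the gene's mean over the 8 libraries (x axis), 1 point per library, coloured by group. In G2 and mitosis the double knockdown, at −0.22 and −0.14, lies below all other libraries, and in the p53, germline, polycomb and histone lists it lies above them.

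Lineage genes did not move as 1 block. Of 32 trophectoderm genes 18 were above and 14 below 0, and Plet1 was the only member that passed. The median of 0.04 joins opposite values, −0.06 without (20 of 32 below 0) and 0.28 with Rbbp7 siRNA (19 above 0). The average Rbbp7 siRNA effect on this list had a median of −0.51, with 26 of 32 below 0. Relative to each gene's mean, the list stood at 0.30 and 0.35 in the control and −0.33 and −0.17 in the Rbbp7 knockdown. The double knockdown, at −0.12 and −0.14, was above the Rbbp7 knockdown but below the control. Krt19, an epithelial keratin, went from 8.27 to 46.5 without to between 54.6 and 205 with Rbbp4 siRNA (2.24 ± 0.39, adjusted p = 0.0522). The trophectoderm regulators Cdx2 and Gata3 had −0.28 ± 0.15 and −0.02 ± 0.09. Pluripotency genes were below 0 in 17 of 22 (median −0.12, with 0.03 without and −0.19 with Rbbp7 siRNA), and none passed. Nanog was 6698 and 6322 in the control, 9093 and 10156 in the Rbbp7 knockdown, 6545 and 6051 in the Rbbp4 knockdown, and 4192 and 4692 in the double knockdown. It was highest with Rbbp7 siRNA alone and lowest with both, so its average of −0.58 ± 0.18 (adjusted p = 0.219) joins −0.05 without and −1.12 with Rbbp7 siRNA (interaction adjusted p = 0.369). Pou5f1 had −0.04 ± 0.10. Dppa3 had −0.31 ± 0.07 (adjusted p = 0.118), with the 4 libraries with Rbbp4 siRNA below the other 4. Sall4 went the other way, at 0.38 ± 0.10 (adjusted p = 0.163), with those 4 libraries above. Primitive endoderm genes were above 0 in 12 of 16 (median 0.24, but 0.08 without control replicate 1), and none passed. The primitive endoderm regulator Gata6 had 0.03 ± 0.08 (adjusted p = 0.894). Cubn, an endocytic receptor of primitive endoderm and trophectoderm, had 641, 676, 303 and 375 without and 1004, 898, 755 and 804 with Rbbp4 siRNA (0.87 ± 0.15, adjusted p = 0.0522), and the laminin chain Lamb1 0.80 ± 0.15 (adjusted p = 0.0768).

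Developmental regulators that polycomb silences were above 0 in 17 of 24 that passed the filter on low values, of 63 listed, and a gene raised in only some libraries can pass it through them. Their median was 0.49 on average, −0.03 without and 0.73 with Rbbp7 siRNA, and 0.26 to 0.64 when 1 library was left out. Sox9 had 57.3, 80.2, 45.9 and 58.5 without Rbbp4 siRNA, 125 and 89.6 in the Rbbp4 knockdown, and 338 and 290 in the double knockdown (1.60 ± 0.37, adjusted p = 0.114). It was thus highest with both siRNAs, with 0.64 without and 2.57 with Rbbp7 siRNA. Of the remaining lists, ribosome biogenesis genes were below 0 in 32 of 42 (median −0.09). At an unadjusted p below 0.05, 3 of the 42 were lower (6.29% of all tested genes). In 1 the 4 libraries with Rbbp4 siRNA lay below the other 4 (3.58%). The median was −0.008 without (24 below 0) and −0.15 with Rbbp7 siRNA, and the average Rbbp7 siRNA effect was above 0 in 31 of 42. Cholesterol synthesis genes had opposite medians in the 2 estimates, 0.23 without and −0.15 with Rbbp7 siRNA. Interferon and nucleic acid sensing genes were above 0 in 10 of 13 (median 0.21, and −0.01 without Rbbp7 knockdown replicate 1). Genes of junctions and polarity were divided evenly, 19 and 19 (median 0.0001).

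Markers of other cell types that embryo samples may carry were low. Summed over 7 cumulus and granulosa markers in the table, levels were 109.7 to 168 without and 156 to 300 with Rbbp4 siRNA, and all 3 tested markers were above 0. Blood cell markers summed to 5.44 to 10.3 without and 9.42 to 24.4 with it, sperm markers to at most 5.55 in any library, and immune cell markers to 144 to 397 and 216 to 367. None of the marker genes in the table was at 0 in every library. Mgl2 and Vav1, which immune or blood cells express, rose while the immune sum overlapped between sides and the blood sum overlapped slightly; the part of such cells in those 2 results was not tested. Pluripotency genes, which mark the embryo itself, summed to 84470 to 97060 and 75810 to 88570.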

How the data were processed

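Polyadenylated RNA was sequenced from 8 libraries of late morulae. Libraries were made from oligo(dT)-selected, fragmented RNA with PCR amplification, per the labels' protocols. The submitters' processing notes name GRCm38 as build and DESeq2, featureCounts, HISAT2 and Trimmomatic as tools; no source used here gives their versions, settings, annotation release or strand use. The deposited unit is a signal, an abundance per gene that the authors normalized between libraries with DESeq2, not raw counts, so no count model was fitted and depth is known only from the totals of the table. Of 19058 identifiers 18942 matched a symbol and 116 did not, and 6493 genes under a mean of 10 were left out.

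From these values log2(value + 1) was fitted with limma 3.58.1 in R 4.3.3, with terms for Rbbp4 siRNA and Rbbp7 siRNA, 5 residual degrees of freedom, a prior of 5.24, an intensity trend and two-sided tests. Estimates without and with Rbbp7 siRNA and the interaction came from a fit with 1 mean per group. The fit was tested on simulated data. Genes were named by a rule, and not every gene that met it is described. It took Rbbp4, Rbbp7 and fixed genes of their complexes and of the lineages. It also took the called genes by p (up to 15 a direction). These needed a symbol other than a predicted gene and 1 direction in both estimates. Called list members and the 3 members of each described list with the smallest p were added. Lists came from general knowledge, share members, and are described by counts and medians without a test. The comparison, its members and its lists were chosen with earlier results of these data known. Gene positions are from GENCODE vM21, and pseudogene copies were matched with BLAST 2.17.0. Alternatives covered the pseudocount, filter, scaling, model terms and each library in turn.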

Additional observations from a re-analysis of the deposited data

Results flagged for a closer look

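Ndufa9, a subunit of mitochondrial complex I, was the 1 gene (0.00796% of those tested) whose Rbbp4 siRNA effect differed between embryos with and without Rbbp7 siRNA in limma's interaction term (8.97 on the log2 scale, adjusted p = 0.00344). It was listed at 276 and 468 in the control, 459 and 172 in the Rbbp7 knockdown, 0 and 0 in the Rbbp4 knockdown, and 476 and 323 in the double knockdown. Only the Rbbp4 knockdown libraries were at 0, so no fold is given and the fitted value depends on the pseudocount. The double knockdown, which received the same Rbbp4 siRNA, overlapped with the control. The average Rbbp4 effect on Ndufa9 did not pass (adjusted p = 0.259).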

How the results depend on the processing

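The change of Rbbp4 passed under every alternative run, at −3.71 to −3.56 with 1 library left out. The 26 other calls had the same direction under all 21 alternatives, and 315 of the 546 pairs of gene and alternative were still past the threshold. Gm12613 passed in 21 of 21 (but see its copies), Mfn2 in 20, with an adjusted p of 0.00272 to 0.162, Pank3 in 19, Sac3d1 in 16 and Ube2m in 7, the fewest.

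The count of genes called for the average Rbbp4 siRNA effect was 27 (12 higher, 15 lower). It was 59 (35 and 24) with 1 mean per group and the interaction kept, 43 (22 and 21) at a mean of at least 50, 41 (20 and 21) with a pseudocount of 5, and 4 (1 and 3) without the variance trend. TMM factors and no filter on the mean gave 19 higher genes each. Embryos without Rbbp7 siRNA gave 3 (1 and 2) and those with it 45 (30 and 15). Leaving out 1 library gave 4 to 22 (1 to 13 higher, 3 to 9 lower): 18 without control replicate 1, 22 without control replicate 2, 14 and 5 without the Rbbp4 knockdown replicates, 5 and 7 without those of the Rbbp7 knockdown, and 8 and 4 without those of the double knockdown. Such fits have fewer residual degrees of freedom, and a group left with 1 library is assumed to vary like the others. The count of genes called for the interaction was 1, and 1 to 21 with 1 library left out, with 21 without control replicate 2.

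Same-numbered libraries did not deviate together over the tested genes (correlations of −0.022 to 0.051), so no broad shift shared by a replicate number was seen. What a replicate number shares is not stated in the labels, and these correlations cannot settle it. A fit with the replicate number as a block called 21 genes, 18 of the 26 among them.

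Some genes that did not pass changed sign. With Rbbp7 siRNA, Cdkn1a had 0.13, Gata6 −0.015, Hira −0.042, Lin54 −0.0081 and Asf1a 0.084. Without it, Chd4 had 0.044, H3f3a −0.094, Chaf1a −0.11 and Pou5f1 0.10. Gata3 had 0.016 after quantile normalization, and Lin54 −0.0058 with TMM factors and −0.0074 with array weights. With 1 library left out, ranges crossed 0 for Asf1a (−0.15 to 0.10), Gata3 (−0.068 to 0.028), Gata6 (−0.0046 to 0.078), Hira (−0.055 to 0.095), Lin54 (−0.053 to 0.064), Pou5f1 (−0.13 to 0.028) and Trp53 (−0.000198 to 0.042). The cause was not tested for any of these.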
